A study of Rattus norvegicus with 3 samples.

Results

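Calcium, sodium, HCN and TRP channel genes set how a neuron fires and how much calcium enters it, and their readings were collected from 3 single cell bodies of cultured rat hippocampal neurons. The genes were chosen by name: every probe set that the platform annotation ties to exactly 1 gene symbol starting with Cacna, Cacnb, Cacng, Scn and a digit, Hcn and a digit, or Trpc, Trpm or Trpv and a digit. This gave 76 of 31099 probe sets, which carried 55 of the 14218 genes measured. The rule itself uses no expression value, but the genes, their roles and all lists were chosen with earlier results of these data known. Each array was hybridised with amplified RNA from a single soma, taken by pipette from a neuron that the labels call pyramidal, and the 3 somata are named cell 1, cell 2 and cell 3 after their replicate number. The neurons were prepared from Sprague-Dawley rat embryos (E19), kept for 14 days in primary culture, and given no treatment that the labels name. All 3 arrays belong to 1 group, so the comparison made here is between kinds of subunit within the same somata, and no p-value was computed since the labels name neither animal nor dish.

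Voltage-gated calcium channels consist of a pore-forming alpha1 subunit and of auxiliary alpha2delta and beta subunits that carry the channel to the membrane and tune its gating; most gamma subunits serve instead as partners of AMPA receptors. Sodium channels join an alpha subunit, which drives the upstroke of the action potential, to small beta subunits. HCN channels open on hyperpolarisation and carry the inward current of pyramidal cell dendrites and of pacemaker cells. TRP channels are cation channels gated by receptors, lipids, temperature or chemicals, of which the TRPC subfamily is the best known in hippocampal neurons.

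Each gene has a level and a position on the array. The level is the deposited log2 intensity, where a gene has the median of its probe sets, and the position is its percentile among the 14218 genes of the same array. Probe brightness enters a percentile too, which therefore tells where a gene stood on an array and does not order transcripts by abundance. Genes are called above background if they read brighter than the 95th percentile of 120 genes that neurons should not use, such as olfactory receptor, milk, liver and muscle genes. This background lay at 9.62, 10.05 and 9.39 log2 in cells 1, 2 and 3. Array medians were 7.23, 7.16 and 7.09 log2. Cell 1 stood apart in the control gene Gapdh, whose 3' probe set exceeded the 5' one by 0.20 log2 in cell 1, 3.06 in cell 2 and 2.93 in cell 3. Of 9 pyramidal markers 2, 2 and 5 were above background in cells 1, 2 and 3, where 7.68%, 5.51% and 11.2% of all genes were. Neurod2 and Nrgn were above it in every cell, and Neurod6, Slc17a6 and Snap25 in cell 3 alone. Camk2a lay at percentiles 26.5, 19.6 and 26.2 and Slc17a7, the vesicular glutamate transporter, at 55.3, 51.2 and 51.2. Tbr1 lay at 2.12, 14.6 and 23.9 and Map2 at 28.7, 17.7 and 67.5. Of 8 microglial markers, 4 were above background in cell 1 and 0 in the other cells, and of 8 astrocyte markers 2 were above it in cell 1 and 0 in the others. The 2 astrocyte markers were S100b and Gja1. Some other markers of both lists were lowest in cell 1. Among them were the microglial Aif1 (percentiles 1.65, 31.9 and 28.3), Cx3cr1 (17.2, 68.3 and 75.8) and C1qb (51.6, 59.8 and 75.8). The astrocyte Gfap (14.9, 68.0 and 47.8), Aldh1l1 (2.87, 30.9 and 11.1) and Aldoc (30.0, 66.1 and 59.5) were lowest there too. By counts above background, the other lists did not single out cell 1. Of 7 vascular markers Vwf was above background in every cell and Esam in cells 2 and 3. Of 8 interneuron markers Calb2 was above it in cells 1 and 3 and Vip in cell 2. Of 7 oligodendrocyte markers Sox10 was above it in cell 2. Vascular and oligodendrocyte medians were nonetheless highest in cell 1, at percentiles 75.3, 65.7 and 52.4 and at 72.0, 65.9 and 57.8. The interneuron medians were 49.5, 63.0 and 35.7, highest in cell 2. The part of other cell types in the readings below was not tested, and precision is limited by there being 3 arrays.

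The channel genes spread over nearly the whole range of each array. Their median percentile was 61.8, 60.8 and 53.2 in cells 1, 2 and 3, where all genes have a median of 50 and the silent genes had 29.6, 37.4 and 34.1. Above background were 7 of 55 (12.7%) in cell 1, 7 (12.7%) in cell 2 and 9 (16.4%) in cell 3, against 7.68%, 5.51% and 11.2% of all genes. Only Cacna1g and Hcn3 passed in every cell (3.64%, against 2.11% of all genes), and 40 genes (72.7%) passed in none, against 83.2% of all genes. With the 99th percentile of the silent genes as threshold 0 channel genes passed in every cell, against 0.675% of all genes, and with the brightest probe set of each gene 0 passed, against 3.65%. A change of 1 channel gene moves these shares by 1.82 percentage points. Cacna1g and Hcn3 have 1 probe set each, so with the brightest probe sets their values were the same and the threshold was higher. In the top 5% of its array, cell 1 had 3 of the genes (5.45%), cell 2 had 7 (12.7%) and cell 3 had 4 (7.27%), against 5.01%, 5.01% and 5% of all genes. Above the 75th percentile in every cell were Cacna1g, Cacnb3, Cacng7, Hcn3, Scn10a and Trpm1 (10.9%, against 8.64% of all genes), and below the 25th in every cell was Cacng3 alone (1.82%, against 7.65% of all genes).

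**Figure D1:**
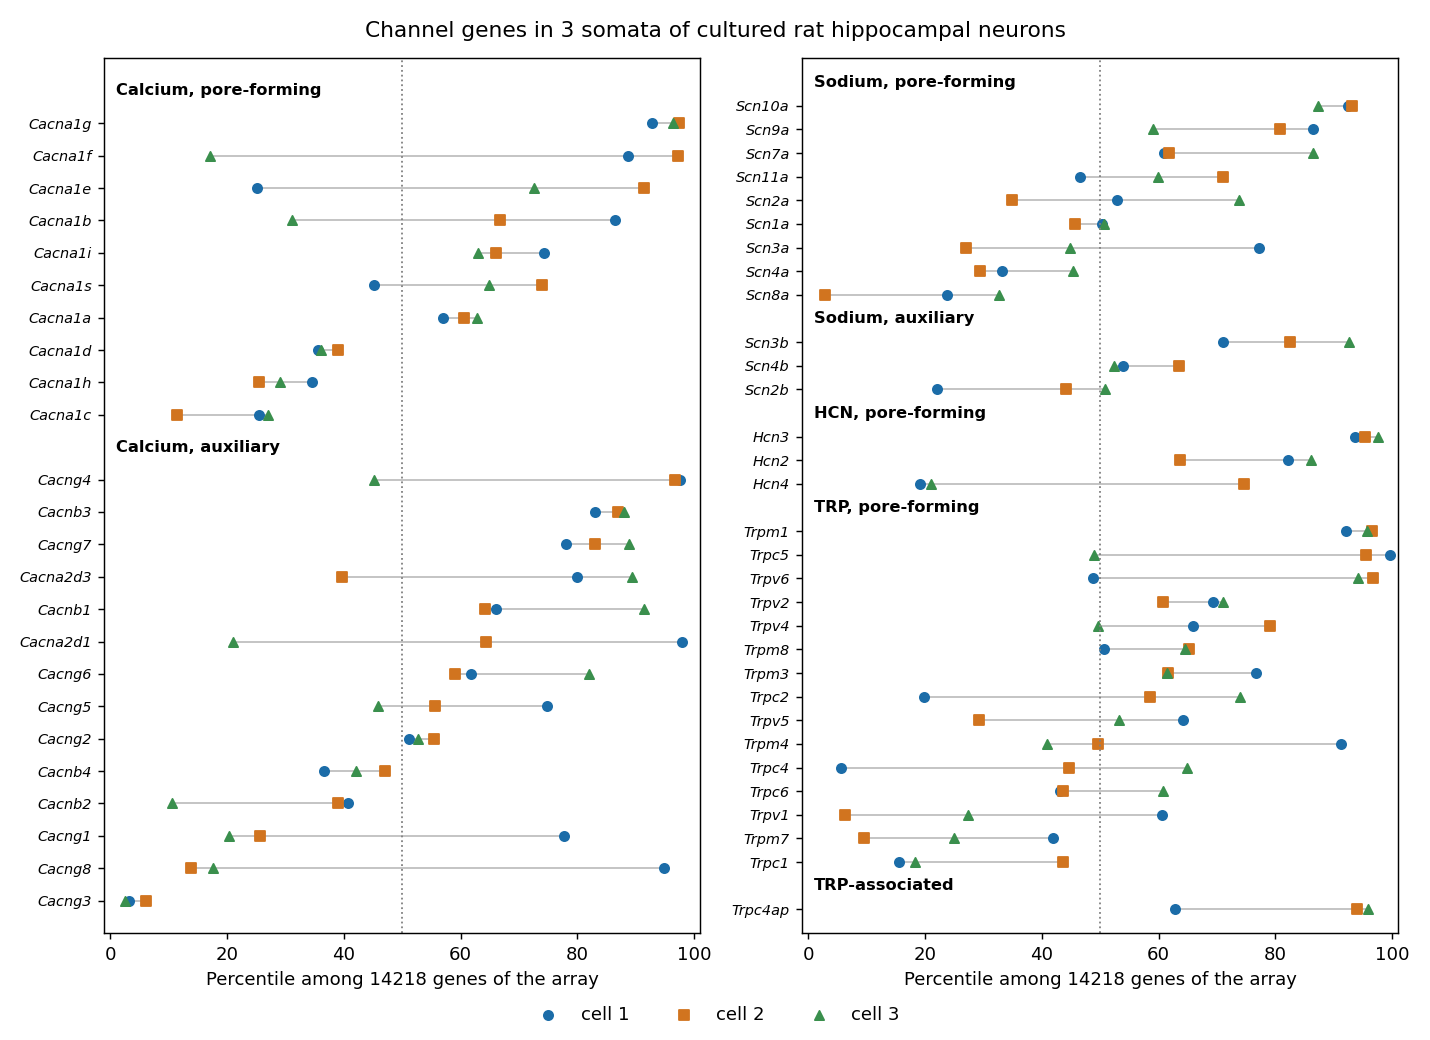
Percentile on the array (horizontal axis) of each of the 55 channel genes in cell 1 (circles), cell 2 (squares) and cell 3 (triangles), grouped by channel class and role and sorted by median, with a grey line from the lowest to the highest cell and a dotted line at 50. Cacna1g, Hcn3 and Trpm1 stayed above 90 in every cell and Cacng3 stayed below 10, while Cacng8, Cacna1f and Cacna2d1 spanned over 75 points.

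Among the 10 pore-forming calcium channel genes, 1 read high throughout. Cacna1g, which encodes a T-type channel that opens at low voltage and supports burst firing and has 1 probe set, of a kind that can match several transcripts, read 9.70, 10.78 and 10.73 log2 in cells 1, 2 and 3, or 10.40 ± 0.61 (SD, n = 3 cells), at percentiles 92.8, 97.4 and 96.3. It was above background on all arrays, with cell 1 the lowest and close to its background of 9.62 log2. The other T-type genes stood lower on the arrays by the median of their probe sets: Cacna1i lay at percentiles 74.2, 66.0 and 62.9, and Cacna1h at 34.6, 25.5 and 29.1. The Cacna1i value is the middle of 2 probe sets that disagreed, at 10.43, 10.12 and 8.61 log2 and at 5.95, 5.57 and 6.77 log2. The brighter one exceeded the Cacna1g reading in cell 1. By these gene values each of the 3 genes kept its place within 11.3 points, which for Cacna1i does not hold for its single probe sets.

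The L-type and presynaptic channel genes gave no common picture. Cacna1c, which encodes the main L-type channel of brain and heart, had the lowest median over the cells, at 6.38, 5.55 and 6.27 log2, or percentiles 25.5, 11.4 and 27.0. This is the middle of 2 probe sets that disagreed, at 7.38, 6.07 and 7.19 log2 and at 5.39, 5.03 and 5.35 log2. Cacna1d, the second neuronal L-type gene, lay at percentiles 35.6, 39.0 and 36.0 and Cacna1a, the P/Q-type channel of nerve terminals, at 56.9, 60.5 and 62.7. No cell stood apart in these medians, which were taken over probe sets that disagreed. By contrast Cacna1b, the N-type channel of nerve terminals, lay at 86.5, 66.7 and 31.1 and Cacna1e, the R-type channel, at 25.1, 91.4 and 72.5, so that cell 3 was the lowest for Cacna1b and cell 1 for Cacna1e. Cacna1f, best known from photoreceptors, read 9.15, 10.72 and 5.79 log2 and passed background in cell 2 alone. Its percentiles of 88.7, 97.3 and 17.0 put cell 3 far below the other cells. Cacna1s, the channel of skeletal muscle, lay at 45.2, 73.9 and 64.9. By subfamily the median percentiles were 40.4, 56.4 and 31.5 for the 4 L-type genes, 56.9, 66.7 and 62.7 for the 3 genes of the P/Q, N and R types, and 74.2, 66.0 and 62.9 for the 3 T-type genes.

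The 14 auxiliary calcium channel genes held some of the steadiest readings and the most variable one. Among the beta subunits, which bind the pore inside the cell, Cacnb3 was the highest in each cell but cell 3, at percentiles 82.9, 87.0 and 88.0 (8.68, 9.08 and 9.28 log2), below background in all of them. Cacnb1 lay at 66.0, 64.2 and 91.4 and passed background in cell 3. Cacnb4 lay at 36.6, 47.0 and 42.0, with no cell apart, and Cacnb2 at 40.6, 39.0 and 10.5, with cell 3 the lowest. Both alpha2delta genes differed widely between the cells. Cacna2d1, whose product is the target of gabapentin, read 10.96, 7.77 and 6.00 log2, at percentiles 98.0, 64.3 and 21.0, and only cell 1 was above background. Cacna2d3 lay at 79.9, 39.7 and 89.3, with cell 2 the lowest and cell 3 above background.

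The gamma subunits are of 2 kinds, and 6 of the 8 measured here belong to the TARP proteins that hold AMPA receptors at synapses. Cacng4 read 10.84, 10.57 and 7.01 log2, at percentiles 97.6, 96.8 and 45.2, above background in cells 1 and 2 and near the array median in cell 3. Cacng7 lay at 78.0, 82.9 and 88.8 and passed background in cell 3 narrowly, at 9.390 against 9.388 log2. Cacng2 (stargazin) read 7.31, 7.43 and 7.29 log2, at percentiles 51.2, 55.5 and 52.7, which is the middle of 2 probe sets that moved in opposite directions, 1 at 8.18, 7.39 and 7.67 log2 and the other at 6.44, 7.47 and 6.91 log2. Cacng8, the TARP known as abundant in the hippocampus, read 10.07, 5.70 and 5.83 log2, at percentiles 94.7, 13.8 and 17.6. Thus cell 1 was above background and the other cells lay low, the widest span (81.0 points) of all 55 genes. Cacng3 had the lowest median of all, at 4.90, 5.12 and 4.61 log2 or percentiles 3.27, 6.07 and 2.44, and was the lowest of the 55 genes in cells 1 and 3. Cacng5 lay at 74.7, 55.6 and 45.8. Of the gamma subunits known from muscle and other tissue, Cacng1 lay at 77.6, 25.6 and 20.3, with cell 1 above the others, and Cacng6 at 61.8, 58.9 and 82.1.

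Pore-forming and auxiliary calcium channel genes did not separate where all 14 auxiliary genes were pooled, 6 TARP and 2 other gamma genes among them. Median percentiles were 51.0, 66.4 and 49.4 for the 10 pore-forming genes in cells 1, 2 and 3, and 76.2, 55.5 and 45.5 for the 14 auxiliary genes. The pore-forming median thus lay 25.1 points below the auxiliary one in cell 1 and 10.8 and 3.86 points above it in cells 2 and 3, a mean difference of -3.48 ± 19.1 points (SD, n = 3 cells). The difference changed sign between the cells and its mean was smaller than their spread. By family the auxiliary medians were 88.9, 52.0 and 55.2 for alpha2delta and 53.3, 55.6 and 65.0 for beta genes. They were 76.4, 55.5 and 45.5 for TARP genes and 69.7, 42.3 and 51.2 for the other gamma genes. In cell 3 the alpha2delta and beta medians thus lay above the pore-forming one, so its sign there depends on counting gamma genes as auxiliary. Without cell 1, which stood apart in Gapdh, the pooled mean difference was 7.35 points, and with the brightest probe set of each gene it was 13.4 points. Above background were 1, 2 and 1 of 10 pore-forming and 3, 1 and 3 of 14 auxiliary genes, against 7.68%, 5.51% and 11.2% of all genes. In at least 1 cell 20% of the pore-forming and 42.9% of the auxiliary genes were above it, against 16.8% of all genes. Part of the auxiliary share rests on narrow passes. Cacng7 and Cacna2d3 passed in cell 3 alone, at 9.390 and 9.446 log2 against a background of 9.388.

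**Figure D2:**
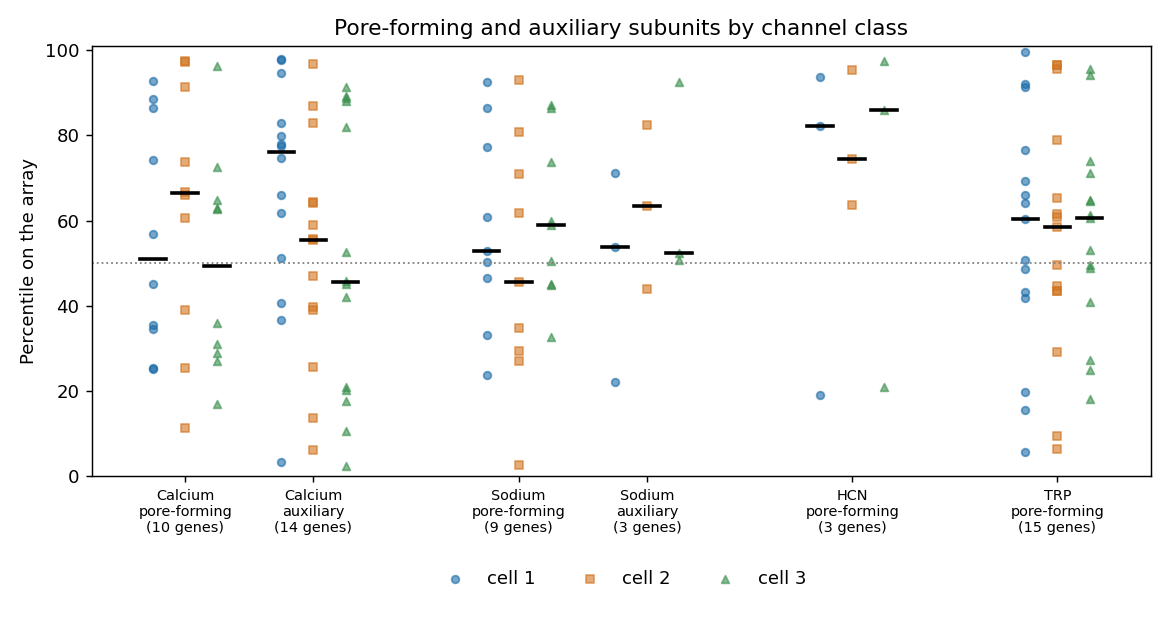
Percentile on the array (vertical axis) of the pore-forming and auxiliary genes of each channel class, with a point per gene in cell 1 (circles), cell 2 (squares) and cell 3 (triangles) and a black bar at the median of each cell. The calcium medians cross between cells, at 51.0 for pore-forming against 76.2 for auxiliary genes in cell 1 and 66.4 against 55.5 in cell 2, and the 3 HCN genes have medians of 74.5 or more in every cell.

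The 4 sodium channel alpha genes of brain had median percentiles over the cells from 23.7 to 52.8. Scn1a lay at percentiles 50.3, 45.6 and 50.6, with no cell apart. Scn2a, the main alpha subunit of the young axon, read 7.36, 6.68 and 8.20 log2 at percentiles 52.8, 34.9 and 73.7, and Scn3a, which is known mainly from embryonic brain, lay at 77.2, 27.1 and 44.8. The order of the cells differed between these genes. Scn8a, the alpha subunit of nodes and of the mature axon initial segment, was the lowest alpha gene in every cell, at 6.31, 4.75 and 6.52 log2 and percentiles 23.7, 2.77 and 32.7. It was also the lowest of all 55 genes in cell 2, and none of these 4 genes was above background in any cell.

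Among the alpha genes of peripheral neurons and muscle, 1 stood high in every cell. Scn10a, known from pain-sensing neurons, read 9.63, 9.81 and 9.18 log2, or 9.54 ± 0.32 (SD, n = 3 cells), at percentiles 92.4, 93.1 and 87.2. It was the highest sodium channel gene in cells 1 and 2, but passed background in cell 1 alone, at 9.631 against 9.616 log2. Scn9a, also of sensory neurons, lay at 86.5, 80.8 and 59.1, Scn7a, the sodium-sensing channel, at 60.9, 61.8 and 86.4, and Scn11a at 46.6, 71.1 and 59.9. Scn4a, the channel of skeletal muscle, lay at 33.2, 29.5 and 45.2, below the array median in every cell.

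Of the beta subunits, Scn3b, which modulates the alpha subunits in brain, read 8.05, 8.70 and 9.94 log2, at percentiles 71.1, 82.5 and 92.6. It was the highest beta gene in every cell and passed background in cell 3. Scn4b lay at 53.9, 63.4 and 52.4, and Scn2b at 22.1, 44.1 and 50.8, with cell 1 the lowest. Median percentiles were 52.8, 45.6 and 59.1 for the 9 pore-forming genes and 53.9, 63.4 and 52.4 for the 3 auxiliary genes. The difference was -1.09, -17.8 and 6.65 points, or -4.09 ± 12.5 (SD, n = 3 cells), and its sign again depended on the cell: without cell 2 it was 2.78 points. With 3 auxiliary genes, the median is the value of a single gene in each cell, Scn4b.

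All 3 HCN genes measured are pore-forming. Hcn3, known from hypothalamus and other brain regions, read 9.84, 10.24 and 11.02 log2, or 10.36 ± 0.60 (SD, n = 3 cells), at percentiles 93.6, 95.4 and 97.5. It was above background in each cell, and in cell 3 it was the highest of the 55 genes. Hcn2, a main HCN subunit of the hippocampus and thalamus, lay at 82.2, 63.6 and 86.1, below background in all cells. Hcn4, the pacemaker channel of the heart that is also found in thalamus, lay at 19.1, 74.5 and 21.0, so that cell 2 stood far above the others. The HCN medians were 82.2, 74.5 and 86.1, the highest of the 6 classes and roles in every cell, from 3 genes with 1 probe set each.

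The 15 TRP channel genes had medians of 60.5, 58.6 and 60.7, and the spread of a subfamily depended on the cell. In cell 1 the TRPC genes ran from 5.60 to 99.6 and the TRPV genes from 48.8 to 69.3. In the TRPC subfamily, whose channels open after receptors activate phospholipase C, Trpc5, known from hippocampal growth cones, read 11.97, 10.27 and 7.15 log2 at percentiles 99.6, 95.6 and 48.9. Cells 1 and 2 were above background, and in cell 1 it was the highest of all 55 genes. Its close relative Trpc4 lay at 5.60, 44.6 and 64.9, with cell 1 at the bottom, so that the cells were in the opposite order. Trpc1, which joins other TRPC subunits, lay at 15.5, 43.5 and 18.2, Trpc6 at 43.2, 43.5 and 60.7 and Trpc2, the channel of the vomeronasal organ, at 19.9, 58.6 and 74.0. Trpc4ap, which matches the rule by name but encodes a TRPC4-binding protein and no channel, lay at 62.8, 94.0 and 95.8 and is left out of the subunit counts.

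In the TRPM subfamily, Trpm1, known from retinal bipolar cells and melanocytes, read 9.58, 10.49 and 10.56 log2, or 10.21 ± 0.55 (SD, n = 3 cells), at percentiles 92.0, 96.5 and 95.6. It was above background in cells 2 and 3 and just under it in cell 1. Trpm4, activated by calcium, lay at 91.3, 49.7 and 40.8, with cell 1 the highest. Trpm3 (76.6, 61.6 and 61.4), a heat- and steroid-gated channel, and Trpm8 (50.7, 65.2 and 64.6), the cold receptor, stood in the upper part of the arrays. Trpm7, a channel fused to a kinase that most cells use, lay at 41.9, 9.50 and 24.9, below the median of every array. Of its 2 probe sets, however, 1 lay at percentile 75.5 among probe sets in cell 1.

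In the TRPV subfamily, Trpv6, a calcium channel of gut and placenta, read 7.23, 10.54 and 10.23 log2 at percentiles 48.8, 96.6 and 94.1, above background in cells 2 and 3 and near the median in cell 1. Trpv5, its relative in the kidney, lay at 64.2, 29.3 and 53.2. Trpv2 lay at 69.3, 60.8 and 71.1 and the osmosensor Trpv4 at 65.9, 79.0 and 49.5, neither above background. Trpv1, the capsaicin receptor, had the lowest median of the subfamily, at 60.5, 6.36 and 27.4, with cell 2 the lowest. Of its 3 probe sets, 1 was instead lowest in cell 1, at percentiles 28.8, 34.6 and 55.4 among probe sets.

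Members that are known from brain did not stand higher than members best known from other organs, although some of the second kind are also found in brain. Median percentiles were 62.8, 55.6 and 50.8 for 39 brain members in cells 1, 2 and 3 and 61.4, 68.1 and 62.2 for 16 members from outside the brain. The difference was 1.40, -12.5 and -11.4 points, or -7.51 ± 7.74 (SD, n = 3 cells). It was no larger than the spread between the cells. Above background in at least 1 cell were 11 of the 39 brain members (28.2%) and 4 of the 16 others (25%), namely Cacna1f, Scn10a, Trpm1 and Trpv6, against 16.8% of all genes. Among pore-forming genes alone the medians were 52.8, 49.7 and 50.6 for 23 brain members and 60.7, 72.5 and 62.2 for 14 others. The silent genes, which are also genes of other organs, had lower medians than both kinds, at 29.6, 37.4 and 34.1. They were listed as genes that neurons should not use, and probe brightness enters the percentiles of all these sets. Why both kinds stood above them was not tested.

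**Figure D3:**
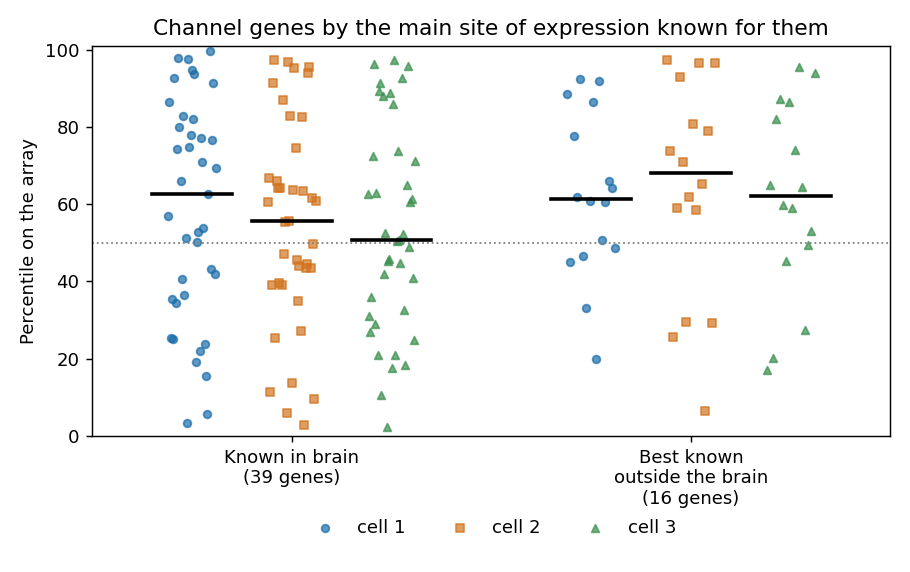
Percentile on the array (vertical axis) of the channel genes known in brain (left, 39 genes) and of those best known from outside it (right, 16 genes), with a point per gene in cell 1 (circles), cell 2 (squares) and cell 3 (triangles) and a black bar at the median of each cell. The points of both kinds cover nearly the same range, and the medians are 50.8 to 62.8 on the left and 61.4 to 68.1 on the right.

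Several members are neighbours on the rat genome, in the gene order of assembly GRCr8, and neighbours did not all read alike. Cacng6, Cacng8 and Cacng7 follow each other with no gene between, yet their median percentiles over the cells ran from 17.6 for Cacng8 to 82.9 for Cacng7. Cacng1, Cacng4 and Cacng5 form a second such run, from 25.6 for Cacng1 to 96.8 for Cacng4. Trpv6 (94.1) and Trpv5 (53.2) also lie side by side. The sodium channel neighbours were closer together, with gaps of 8.03 points between Scn3a and Scn2a and 9.85 points between Scn2b and Scn4b. Scn1a, Scn9a and Scn7a spanned 30.4 points, and Scn10a and Scn11a, with 1 gene between them, 32.6 points.

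How far the somata differed depended on the gene. After quantile normalisation, the SD over the cells had a median of 0.65 log2 for the 55 channel genes and 0.77 log2 for all genes. The smallest SDs were those of Cacna1d (0.07), Cacng2 (0.08), Scn1a (0.10), Cacna1a (0.12) and Cacnb4 (0.19), all genes of brain, with percentiles between 35.6 and 62.7. Of these, Scn1a and Cacnb4 have 1 probe set each, while the small SDs of Cacna1d, Cacng2 and Cacna1a are those of a median over probe sets that disagreed. The 3 probe sets of Cacna1d read 7.50, 8.43 and 9.57 log2, 6.78, 5.97 and 6.65 log2, and 5.70, 6.83 and 6.44 log2 in cells 1, 2 and 3, so the median came from different probe sets in different cells. The largest were those of Cacng8 (2.53), Cacna2d1 (2.52), Cacna1f (2.51), Trpc5 (2.49) and Cacng4 (2.15), each above background in at least 1 cell. Of the channel genes, 14 (25.5%) had percentiles over 50 points apart, against 20.8% of all genes.

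Over the 55 genes, cells 1 and 2 had a Pearson's r of 0.528 (Spearman's rho 0.494), cells 1 and 3 of 0.255 (0.238) and cells 2 and 3 of 0.606 (0.551). Over all 14218 genes r was 0.473, 0.438 and 0.676 for the same pairs. These are descriptions across genes on shared probes, and genes are not independent replicates. Cell 1 stood over 25 points above both other cells in Cacna2d1, Cacng1, Cacng8, Scn3a, Trpm4 and Trpv1 (10.9%, against 11.7% of all genes) and over 25 points below both in Cacna1e, Trpc2, Trpc4, Trpc4ap and Trpv6 (9.09%, against 10% of all genes). Cell 3 stood as far below both others in 6 genes, Cacna1b, Cacna1f, Cacna2d1, Cacnb2, Cacng4 and Trpc5 (10.9%, against 6.09% of all genes), and as far above them in Cacnb1 alone (1.82%, against 6.58% of all genes). Cell 2 stood as far above both others in Hcn4 and Trpc1 (3.64%, against 6.09% of all genes) and as far below them in Cacna2d3 (1.82%, against 4.61% of all genes). Of the genes named here, Trpv1, Cacnb1 and Cacnb2 are medians over probe sets that disagreed on which cell stood apart. The Gapdh ratio and the counts of microglial and astrocyte markers above background also set cell 1 apart, although other markers of both lists were lowest in it. Pyramidal markers above background were most numerous in cell 3, with 5 of 9 against 2 in each other cell. In cell 3 all genes passed most often too, at 11.2% against 7.68% and 5.51% in cells 1 and 2. The part of all these in the readings was not tested.

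**Figure D4:**
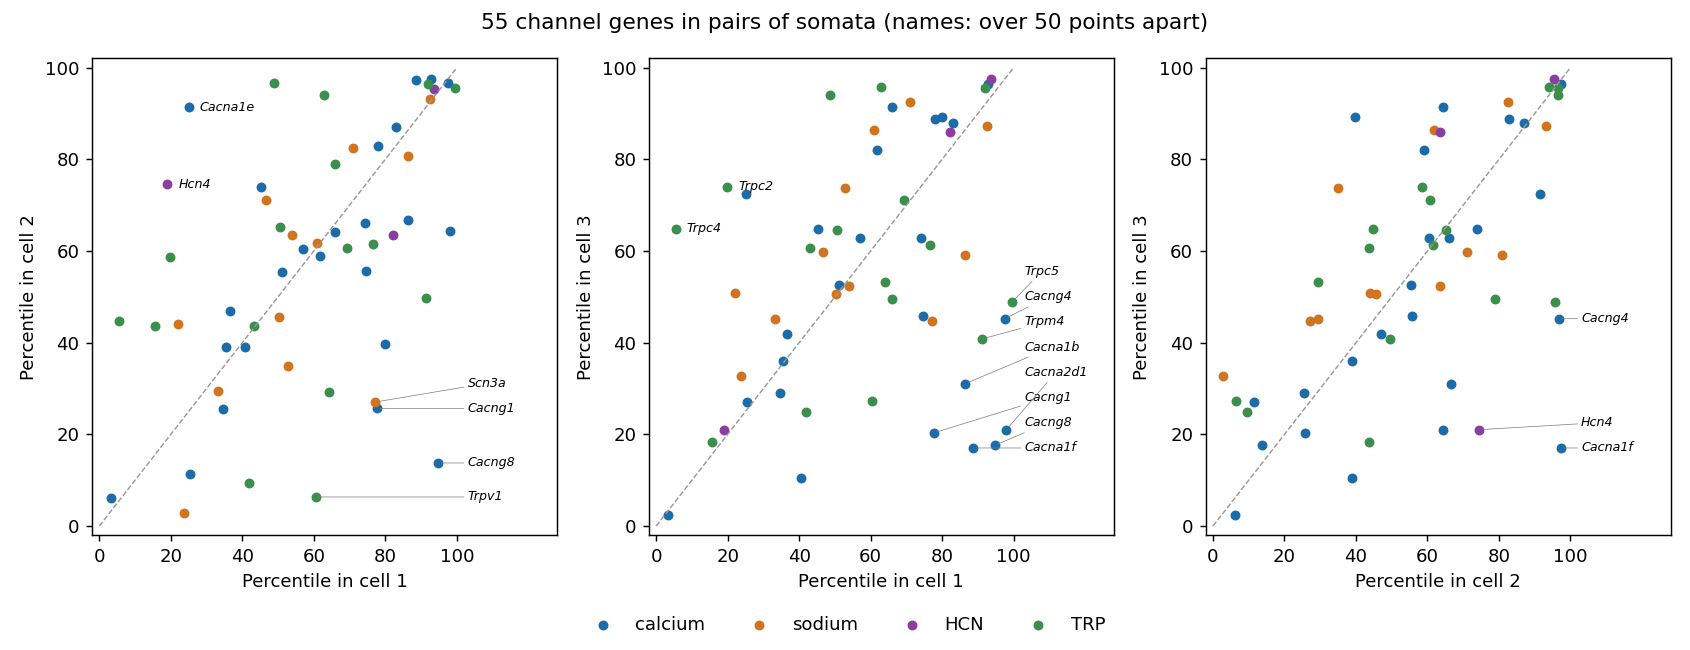
Each panel plots the 55 channel genes by their percentile in 2 somata, 1 on each axis, coloured by channel class, with a dashed line of equality and the names of genes over 50 points apart. There are 6 such genes (10.9%) for cells 1 and 2, 10 (18.2%) for cells 1 and 3 and 3 (5.45%) for cells 2 and 3, against 11.7%, 12.7% and 6.19% of all genes, and the cloud is widest for cells 1 and 3, with r = 0.255.

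A reading also depended on the probe set. Of the 55 genes, 40 had 1 probe set and 15 had 2 or more, and for these the median percentiles of the probe sets of 1 gene lay 40.3 points apart at the median, against 33.4 points for the 4526 genes of the array with 2 or more. Here the percentile is taken among the 20832 single-symbol probe sets. The 5 probe sets of Cacna1a lay at median percentiles 86.9, 77.2, 60.3, 32.8 and 9.69, so the steady value of the gene is the middle of probe sets that disagreed. The brighter probe set of Cacna1i had percentiles 95.2, 92.9 and 78.5 in cells 1, 2 and 3, and the dimmer one had 19.7, 15.1 and 41.3. For Trpc2 they lay at 42.4, 83.3 and 82.5 and at 9.33, 25.7 and 58.5. The gap exceeded 50 points in these 3 genes (20%, against 28.7% of all genes with 2 or more probe sets). The probe sets of Scn3b agreed in cells 2 and 3 but not in cell 1, where they lay at 91.6 and 26.3, and those of Cacnb1 parted in cell 3, at 98.3 and 65.3. Cacna1g, Hcn3, Scn10a, Trpm1, Cacng8, Cacna2d1 and Trpc5 rest on 1 probe set each, so the readings used here give no second value for them. The probe set of Cacna1g is of a kind that can match several transcripts, and the gene drops out where such probe sets are left out.

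**Figure D5:**
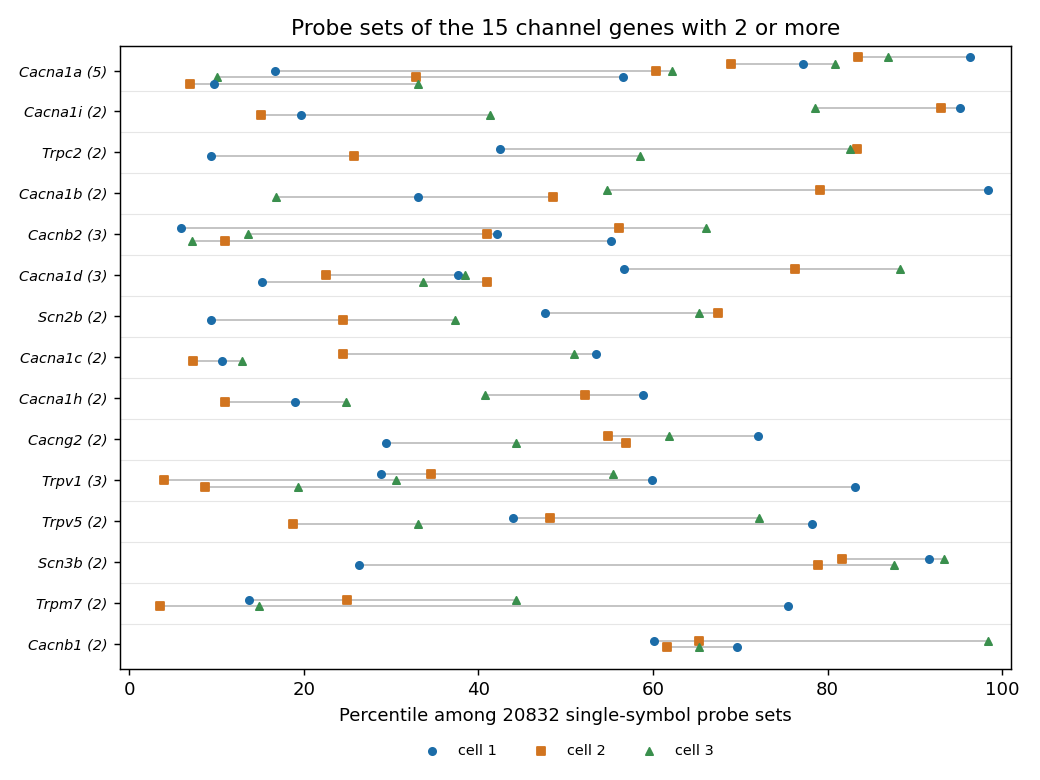
Percentile among single-symbol probe sets (horizontal axis) of each probe set of the 15 channel genes with 2 or more, with cell 1 as circles, cell 2 as squares, cell 3 as triangles, a grey line per probe set from its lowest to its highest cell, and the number of probe sets in brackets. Genes are sorted by the gap between their probe sets, from Cacna1a with median percentiles of 9.69 to 86.9 down to Cacnb1, whose probe sets had medians of 65.3.

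Lists of genes that act with the channels had lower medians than the pore-forming genes of the same class in each cell, except the sodium channel partners in cell 2. The 16 measured partners of calcium channels had medians of 36.8, 33.2 and 21.2, from calmodulin, Calm2, at percentiles 95.3, 93.3 and 97.7 to the adaptor Stac at 1.96, 2.99 and 1.81. Calm2 was their sole member above background, in cells 1 and 3 (6.25% in at least 1 cell, against 16.8% of all genes). The 12 partners of sodium channels had medians of 44.9, 46.2 and 43.9. They ran from the ankyrin Ank2, at 73.4, 93.8 and 97.4, to the leak channel Nalcn, at 4.96, 14.2 and 43.7. Above background were 1, 0 and 2 of them (25% in at least 1 cell, against 16.8% of all genes). For HCN channels 4 partners had medians of 32.2, 13.2 and 29.6. Among them Vapb had the highest median, at 48.0, 51.8 and 48.7, and Kcne2 the lowest, at 4.60, 10.7 and 2.23. The 13 relatives and partners of TRP channels had medians of 24.9, 52.9 and 54.2, with the polycystin channel Pkd2 at 91.7, 98.2 and 97.8 and Mcoln2, of endosomes, at 0.165, 0.176 and 2.69. Genes of calcium stores had the highest medians, 73.6, 62.4 and 65.7 over 11 genes. In this list Atp2a1, a calcium pump best known from fast muscle, lay at 94.9, 96.0 and 98.0, above background in every cell, and the release channel Ryr2 lay at 9.48, 30.6 and 17.3.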

How the data were processed

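The authors deposited 1 log2 value per probe set and array, and the labels name RMA 2.0. RNA was amplified in repeated rounds, the last for 14 h, before hybridisation to Affymetrix rat arrays. Median centring and scaling, which the methods describe for all arrays, are not seen in the deposited log2 values. How many arrays were processed together, and a genome build, are not given in the sources used here. No detection calls were used.

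Of 31099 probe sets, 20832 carried 1 symbol, 436 several and 9780 none here, and the others were unnamed control probe sets. A gene took the median of its probe sets, and genes were ranked within each array with ties at their mean rank. The 55 symbols were all found in RefSeq (GRCr8). Some genes of these families are not reported here, and 1 probe set shared by Trpv1 and Trpv4 was left out. Background came from 29 receptor genes and 91 genes of other organs.

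Values in each cell are given for the highest and lowest member of each class and role and for members that were bright, variable, steady or split between probe sets, and are shown for the other members too, which the rule gave by range. The members, their roles and all lists were chosen with earlier results of these data known. No test was run. The ranking was checked on simulated data without ties. The arrays held 2889, 2866 and 2090 distinct values over 31099 probe sets, so many probe sets shared a value. The check did not cover such ties. Python 3.11.15, pandas 2.3.3 and scipy 1.17.1 were used.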

Additional observations from a re-analysis of the deposited data

How the results depend on the processing

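Positions of the classes moved with the choice of probe sets. Where the brightest probe set stood for its gene, the mean over the cells of the median percentile was 67.8 for pore-forming calcium genes (55.6 with the median), 45.3 for pore-forming sodium genes (52.5), 73.4 for HCN genes (80.9) and 49.2 for TRP genes (59.9). The HCN and pore-forming sodium genes have 1 probe set each, so their own values were unchanged and only their rank among other genes fell. Without probe sets that can match several transcripts it was 43.1 over 8 of 10 pore-forming calcium genes, where Cacna1g, the highest, and Cacna1e were lost, and 57.9 over 12 of 15 TRP genes, where Trpc4, Trpc6 and Trpv2 were lost. With probe sets ranked on their own it was 53.2 for TRP genes. Ranked only among genes whose mean log2 value exceeded the mean array median, 6 of 9 pore-forming sodium genes had 42.7, 2 of 3 auxiliary sodium genes 47.8 and 9 of 15 TRP genes 40.6. The difference of pore-forming minus auxiliary genes turned to 13.4 points for calcium channels with the brightest probe sets and to 0.0578 for sodium channels without ambiguous probe sets, which removed Scn8a. Leaving out 1 cell gave -10.6 to 7.35 points for calcium and -9.46 to 2.78 for sodium channels.

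Counts above background depended on the threshold. With the receptor genes alone 13 members passed in cell 2 (23.6%, against 18% of all genes) and 4 in every cell (7.27%, against 3.33%). With the 99th percentile of the silent genes 1, 1 and 2 passed in cells 1, 2 and 3 (1.82%, 1.82% and 3.64%, against 1.88%, 2.67% and 3.78% of all genes), and 0 passed in every cell (against 0.675%). These shares differ from those of all genes by less than 1 member, which is 1.82 percentage points. With the brightest probe sets 0 passed in every cell (against 3.65%). Cacna1g and Hcn3, with 1 probe set each, kept their values there, and the threshold rose. Leaving out 1 cell gave 2 to 4 members above background in all remaining cells, 8 to 10 above the 75th percentile (6 with all cells) and 2 to 3 below the 25th (1 with all cells), where fewer cells can only keep or raise such counts. It gave -12.0 to -5.00 points for brain minus other members (-7.51 with all cells). The alternatives for the 75th and 25th percentiles and for brain members were chosen after seeing the data. Of 100 alternative values, 73 stayed within the spread between cells or within 1.5 times the count, 23 moved and 4 changed sign. No paired analysis was possible because the arrays form 1 group.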
